A study of Mus musculus with 20 samples.

Results

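DNA repair genes were chosen by symbol: the Fanc genes, Brca1, Brca2, Blm, and the Rad50 to Rad59, Xrcc, Ercc, Msh and Mlh series. The rule found 47 of the 18722 genes in the table. For description they were placed in classes by their known roles: 4 genes of the Fanconi ID2 complex and BRCA, 8 of the Fanconi core complex, strand exchange genes of recombination (6), their cofactors (5), RAD50 and BLM (2), XRCC genes of break repair (4), ERCC genes of nucleotide excision repair (7), mismatch repair (5) and meiotic MutS homologs (2). The remaining 4 genes, Fancd2os, Rad54l2, Ercc6l and Ercc6l2, matched by name and were not placed in a role class, whether or not they act in repair. Values are FPKM, fragments scaled to the length of the gene and the size of the library, so levels can be set against each other between genes. Between libraries they are shares of each library's total, so they also depend on what else the library holds. The median-of-ratios scaling factor was 0.655 for anti-PD-1 replicate 1 and 0.926 to 1.14 for every other library. Its part in the low values of that library was not tested.

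The libraries came from tumours grown from the mouse cervical cancer line U14 and are the whole RNA of the tumour, with tumour and host cells together. The groups hold 5 libraries each. Solution is the control, Plerixafor is an antagonist of the chemokine receptor CXCR4, anti-PD-1 is an antibody against an inhibitory receptor of T cells, and Combination is read from its name as both agents. Doses, times, host strain, sex and age are not given in the labels used here, nor is it stated that the 5 libraries of a group are separate animals, so p-values reflect how far the libraries of a group scatter, and that scatter may be technical.

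DNA repair works in linked pathways. Homologous recombination copies the sister chromatid, with BRCA1 preparing the broken end, BRCA2 serving strand exchange, and helicases such as BLM resolving the joined strands. The Fanconi anaemia core complex ubiquitinates the FANCD2 and FANCI pair at crosslinks and hands them to the same machinery. End joining by the Ku proteins, excision repair by the ERCC proteins and mismatch repair by the MSH and MLH proteins deal with other lesions, and many genes of recombination and mismatch repair are transcribed mainly in cells that are copying their DNA.

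The depth recovered from the FPKM values ran from 16565807 to 19833872 reads per library. Markers of several cell types differed between the groups, and their part in the results below was not tested. All 12 markers of proliferating cells (Mki67, Top2a, Aurka, Plk1 and others) were higher in Plerixafor than in Solution, with a median log2 fold change of 3.50, and their summed level was 45.7 to 71.8 FPKM in Solution, 523.5 to 1014 in Plerixafor, 13.0 to 150.6 in anti-PD-1 and 792.4 to 973.4 in Combination. All 8 macrophage markers were lower in Plerixafor, with sums of 11128 to 15019 FPKM in Solution and 1341 to 6106 in Plerixafor, against 1523 to 12011 in anti-PD-1 and 795.0 to 3827 in Combination. All 7 fibroblast markers and all 8 T cell markers were lower as well, with sums of 4994 to 8161 against 483.7 to 1832 FPKM for fibroblasts and 156.9 to 260.9 against 16.7 to 103.5 FPKM for T cells. The fibroblast sums were 1617 to 7636 FPKM in anti-PD-1 and 376.7 to 1419 in Combination, and the T cell sums were 46.6 to 161.6 and 5.16 to 80.5. The 5 endothelial markers fell too, with sums of 83.7 to 114.0 FPKM in Solution, 35.9 to 72.2 in Plerixafor, 107.5 to 179.1 in anti-PD-1 and 30.9 to 61.4 in Combination. None of these markers was at 0 in every library of a group. Of 6 epithelial genes 2 rose and 3 fell in Plerixafor: Krt8 rose from 20.7 to 189 FPKM in Solution to 292 to 457 in Plerixafor, whereas Epcam was at 7.69 to 56.7 and 0.103 to 3.37. In anti-PD-1 Krt8 was at 2.27 to 37.8 FPKM, and no library lacked it. The skeletal muscle markers were 7 genes: Acta1, Ckm, Myh4, Tnnt3, Mylpf, Tnnc2 and Atp2a1. Together they took 18.6% of the FPKM of anti-PD-1 replicate 1 and between 2.30% and 6.04% in anti-PD-1 replicates 2, 3 and 5. In every other library they took at most 0.291%. Other muscle genes were not counted in these shares. In whole tumours, fewer cells of a type and less RNA per cell cannot be told apart.

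**Figure D1:**
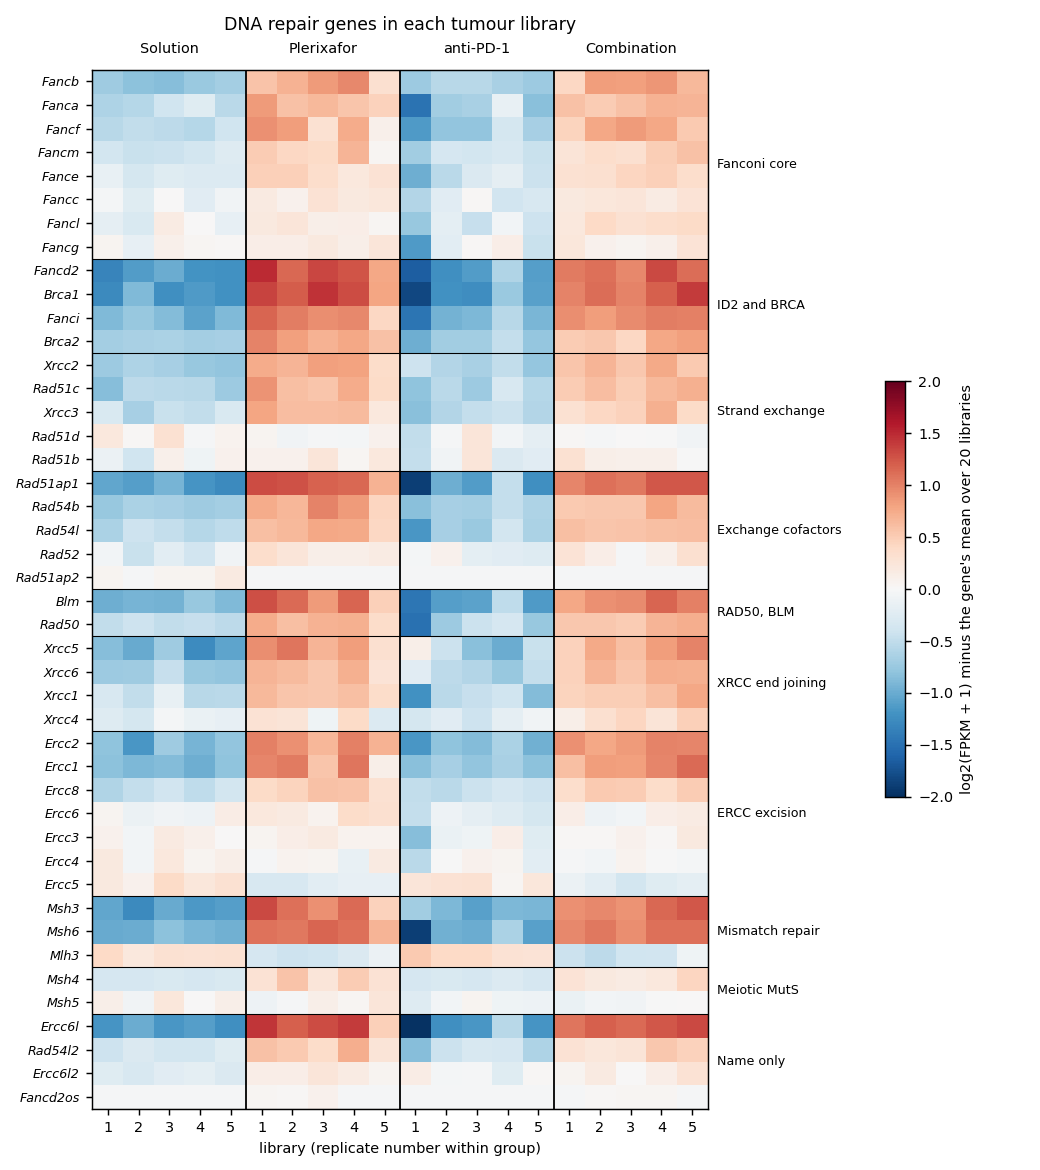
Level of 44 of the 47 DNA repair genes (rows, by role) in each of the 20 libraries (columns, by group and replicate), as log2(FPKM + 1) minus the gene's mean over all libraries, on a scale from -2 (blue) to 2 (red). Most rows are red in the Plerixafor and Combination columns and blue in the Solution and anti-PD-1 columns, with Mlh3 and Ercc5 the other way round, and Plerixafor replicate 5 is paler than its group.

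Most DNA repair genes stood higher in tumours that had received Plerixafor, with or without the antibody, and none passed the test with the antibody alone. Genes were tested with limma on log2(FPKM + 1), which understates the change of genes at low FPKM, with p-values adjusted by Benjamini-Hochberg over the 12687 genes that reached 1 FPKM in at least 5 libraries. Of the 47 DNA repair genes 42 were tested. In Plerixafor against Solution 35 of them rose and 2 fell, where 75.5% of all tested genes passed, 42.3% as higher and 33.2% as lower. The median log2 fold change of the 42 was 1.10 against 0.13 for all tested genes. Brca2, Fancb, Fancm, Rad51c and Rad54b reached the 1 FPKM minimum only through the groups with Plerixafor, so the count of tested genes is not independent of their rise. With no minimum all 47 could be fitted, and 37 rose and 3 fell, where 31.6% of all 18722 genes were called higher and 30.2% lower. Those calls include Fancd2os as higher and Rad51ap2 as lower, which rest on 4 reads over the Plerixafor libraries and 6 over the Solution libraries.

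Combination against Solution gave 35 higher and 2 lower genes, where 76.1% of all tested genes passed, 42% as higher and 34.1% as lower, and a median of 1.09 against 0.10 for all genes. Combination against anti-PD-1, which shares no library with the Plerixafor comparison, gave 37 higher and 2 lower, where 74.6% of all tested genes passed, 43.7% as higher and 30.9% as lower, and a median of 1.22 against 0.15. With median-of-ratios scaling the median of all genes in that comparison moved to -0.014, and 35 of the 42 rose and 2 fell, where 38.2% of all tested genes were higher and 36.9% lower. The Plerixafor and Combination comparisons with Solution use the same 5 control libraries, so their values are given side by side only. In every Plerixafor library 35 of the 47 genes stood above every Solution library and 2 stood below, where 41.5% of tested genes stood above and 29.1% below. For Combination and Solution these were 36 above and 2 below, where 42.1% and 33% of tested genes were, and for Combination and anti-PD-1 they were 35 above and 2 below, where 37.9% and 15.8% were. When the 10 libraries with Plerixafor were set against the 10 without, 32 genes stood wholly above and 2, Ercc5 and Mlh3, wholly below, where 32.9% and 9.94% of tested genes did. These counts of genes standing above or below run over all 47, including 5 that were not tested. Msh4, which was not tested, is among those above, while the shares cover tested genes only.

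**Figure D2:**
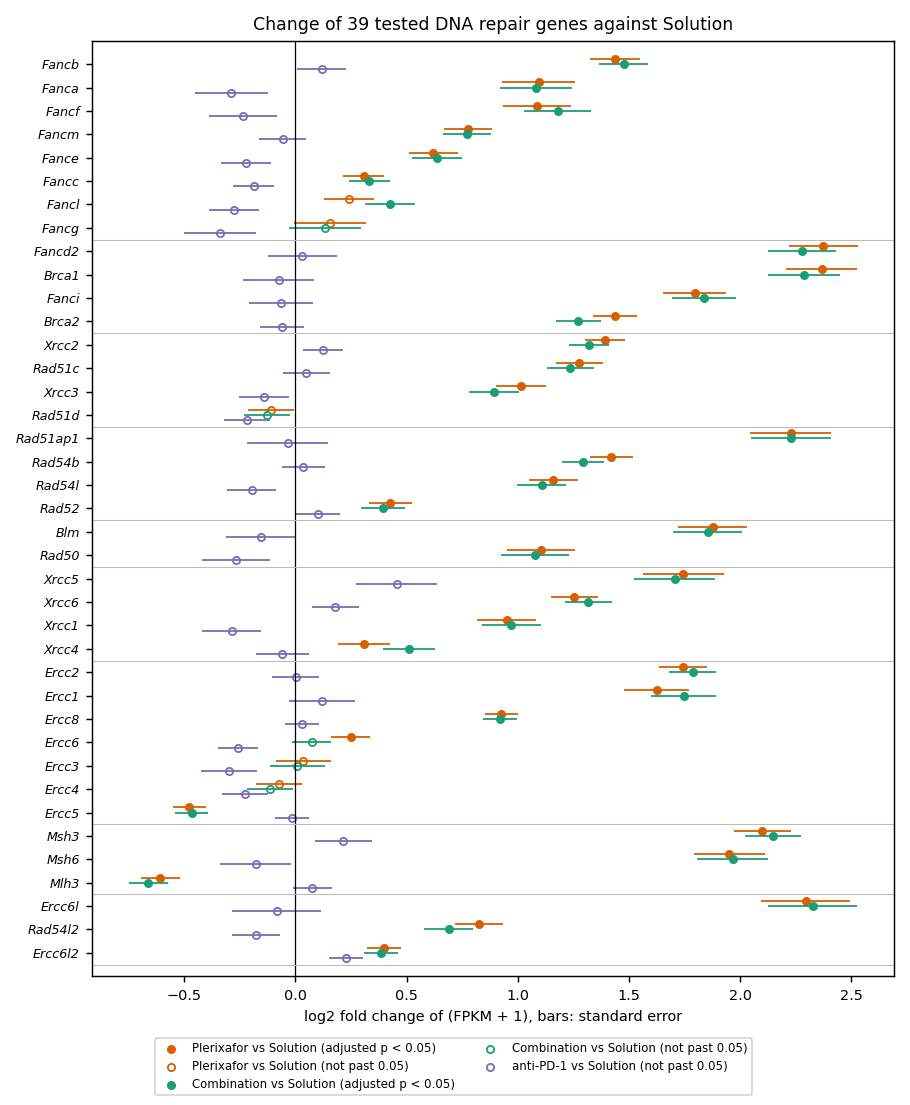
Log2 fold change of (FPKM + 1) against Solution (horizontal axis, bars are standard errors from limma) for 39 of the 42 tested DNA repair genes, in Plerixafor (orange), Combination (green) and anti-PD-1 (purple), with filled points past an adjusted p of 0.05. The orange and green points run from -0.66 for Mlh3 to 2.37 for Fancd2, and the purple points lie between -0.34 and 0.46, none filled.

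The 4 genes of the ID2 complex and BRCA all rose, with a median log2 fold change of 2.08 in Plerixafor and 2.06 in Combination. Brca1, whose protein prepares broken ends for recombination, was at 0.773, 1.33, 0.828, 0.949 and 0.841 FPKM in Solution replicates 1 to 5. In the Plerixafor replicates it was at 9.96, 8.86, 10.7, 9.58 and 6.42 FPKM. The lowest Plerixafor library, replicate 5, was still above every Solution library. Brca1 was at 0.217, 0.853, 0.799, 1.56 and 1.01 FPKM in anti-PD-1 and at 7.55, 8.32, 7.52, 8.8 and 10.3 in Combination, and these groups did not overlap either. The log2 fold change against Solution was 2.37 (adjusted p = 4.01e-10, SE 0.16) in Plerixafor and 2.29 (adjusted p = 5.65e-10, SE 0.16) in Combination.

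Brca2, which serves strand exchange on single-stranded DNA, was at 0.425, 0.447, 0.469, 0.416 and 0.433 FPKM in Solution and 3.53, 3.03, 2.71, 2.89 and 2.42 in Plerixafor. In anti-PD-1 it was at 0.155, 0.403, 0.403, 0.64 and 0.336 FPKM, and in Combination at 2.23, 2.3, 2.04, 2.88 and 3.02. All Solution libraries lay within a narrow range below 1 FPKM, and every library with Plerixafor lay above 2 FPKM. The log2 fold changes against Solution were 1.44 (adjusted p = 5.57e-10, SE 0.10) in Plerixafor and 1.27 (adjusted p = 2.41e-09, SE 0.10) in Combination, while the ratio of mean FPKM was 6.65 and 5.7.

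Fancd2, the subunit of the pair whose ubiquitination marks a crosslink, had a mean of 0.679 ± 0.142 FPKM in Solution (SD, n = 5). It was at 0.506, 0.733, 0.888, 0.638 and 0.631 FPKM in Solution and 9.61, 7.32, 8.53, 8.06 and 5.47 in Plerixafor. The anti-PD-1 libraries had 0.196, 0.607, 0.735, 1.49 and 0.755 FPKM and the Combination libraries 6.73, 7.08, 6.33, 8.43 and 7.18. The groups with Plerixafor lay far above the others, at 11.5 and 10.5 times the Solution mean, and anti-PD-1 replicate 4 was the highest library without it. Its log2 fold change was 2.37 (adjusted p = 2.41e-10, SE 0.16) in Plerixafor. Fanci, the other subunit, moved from 0.647, 0.803, 0.665, 0.445 and 0.656 FPKM in Solution to 5.84, 5.21, 4.82, 4.92 and 3.07 in Plerixafor. It was at 0.102, 0.579, 0.629, 1.07 and 0.617 FPKM in anti-PD-1 and 4.79, 4.41, 4.84, 5.19 and 5.11 in Combination, again with no overlap, and its log2 fold change was 1.80 (adjusted p = 3e-09, SE 0.14) in Plerixafor. Fanci overlaps Polg in the annotation, and Polg had means of 8.38 and 12.5 FPKM in Solution and Plerixafor. Whether reads were counted by strand is not stated, so overlapping genes can share reads, and 17 of the 47 genes, Msh3 among them, overlap another in the annotation.

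**Figure D3:**
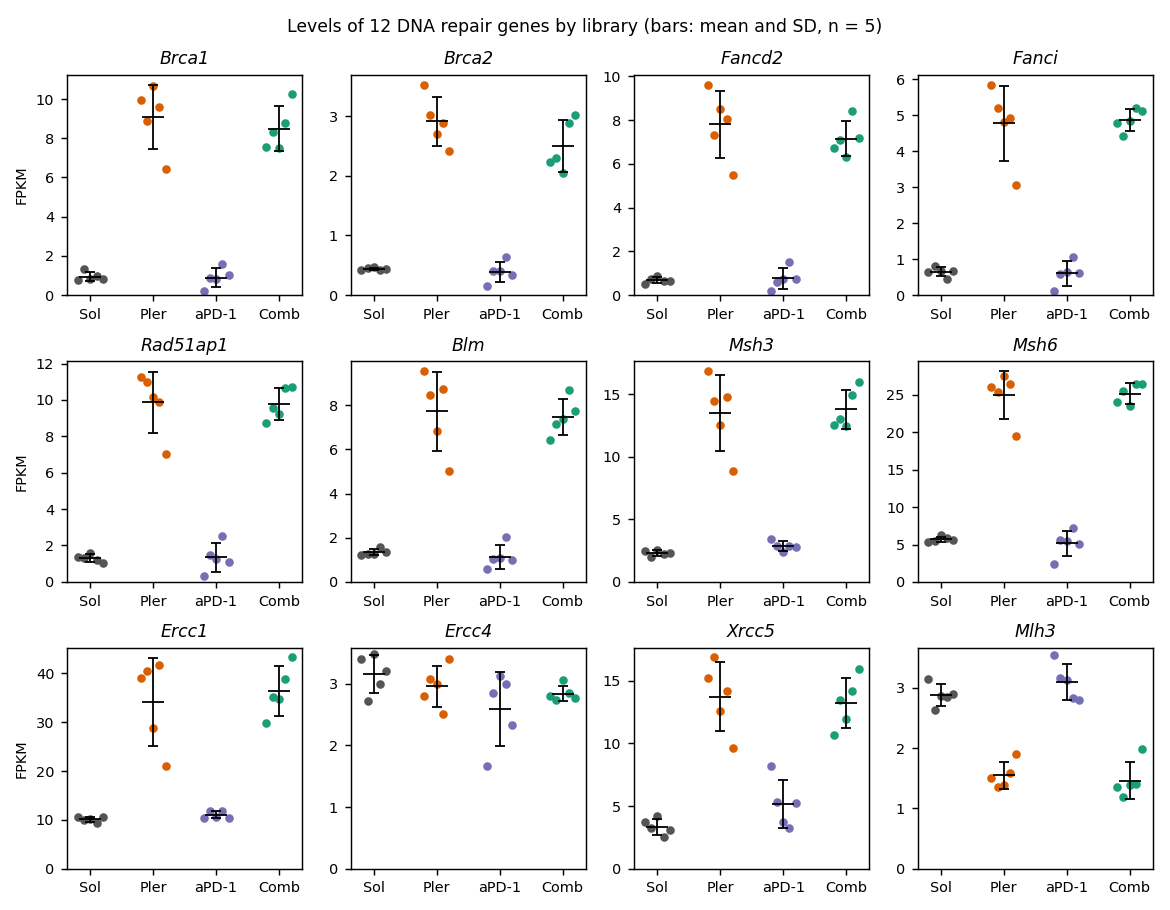
FPKM (vertical axis, from 0, with its own scale in each panel) of 12 DNA repair genes in the 5 libraries of each group (points), with mean and SD as bars. In Brca1, Brca2, Fancd2, Fanci, Rad51ap1, Blm, Msh3, Msh6, Ercc1 and Xrcc5 every Plerixafor (Pler) and Combination (Comb) library lies above every Solution (Sol) and anti-PD-1 (aPD-1) library, in Mlh3 every one lies below, and in Ercc4 the groups overlap.

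The Fanconi core complex had a lower median, 0.70 in Plerixafor and in Combination, and 6 of its 8 genes passed in Plerixafor. Fancb, a subunit of its catalytic module, was at 0.789, 0.65, 0.62, 0.754 and 0.828 FPKM in Solution and 3.33, 3.74, 4.27, 4.7 and 2.63 in Plerixafor. It was at 0.76, 0.985, 0.996, 0.871 and 0.767 FPKM in anti-PD-1 and 2.89, 4.19, 4.15, 4.36 and 3.58 in Combination, with every library with Plerixafor above every other. The log2 fold change was 1.44 (adjusted p = 2.08e-09, SE 0.11) in Plerixafor. Fancm, the translocase that brings the complex to DNA, was at 0.829, 0.732, 0.756, 0.838 and 0.972 FPKM in Solution and 2.36, 2.14, 2.07, 2.77 and 1.43 in Plerixafor. In anti-PD-1 it was at 0.465, 0.869, 0.839, 0.898 and 0.729 FPKM and in Combination at 1.81, 2.01, 1.94, 2.3 and 2.55, and its log2 fold change was 0.78 (adjusted p = 3.2e-06, SE 0.11) in Plerixafor. Fanca, Fancf, Fance and Fancc, which are structural subunits, also rose, with log2 fold changes of 1.09, 1.09, 0.62 and 0.31.

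Fancg, another core subunit, was the gene of this class with the largest p, at 4.52, 3.74, 4.67, 4.42 and 4.4 FPKM in Solution and 4.83, 4.83, 5.07, 4.73 and 5.29 in Plerixafor. In anti-PD-1 it was at 1.4, 3.59, 4.39, 4.81 and 2.87 FPKM and in Combination at 5.19, 4.59, 4.48, 4.67 and 5.4. Every Plerixafor library was above every Solution library, yet the difference was small and did not pass, at 0.16 (adjusted p = 0.398, SE 0.16). Fancl, the ubiquitin ligase of the complex, did not pass in Plerixafor, at 0.24 (adjusted p = 0.0583, SE 0.11), and passed in Combination, at 0.43 (adjusted p = 0.0021, SE 0.11). The gene passed in Plerixafor with array weights, in a fit of only the groups compared, and without Solution replicate 3 or anti-PD-1 replicate 1 or 4, with values of 0.24 to 0.31 and adjusted p of 0.000851 to 0.0375 by limma. The difference between Combination and Plerixafor did not pass, at 0.18 (adjusted p = 1, SE 0.11).

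Among the strand exchange genes Xrcc2, Rad51c and Xrcc3 rose and Rad51d did not pass. Xrcc2 was at 1.31, 1.46, 1.4, 1.25 and 1.2 FPKM in Solution and 5.34, 5.05, 5.74, 5.61 and 3.91 in Plerixafor. It was at 1.86, 1.53, 1.41, 1.69 and 1.21 FPKM in anti-PD-1 and 4.57, 5.06, 4.51, 5.41 and 4.48 in Combination. The groups with Plerixafor did not overlap the others, and the log2 fold change was 1.39 (adjusted p = 2.67e-10, SE 0.092) in Plerixafor. Rad51c, which pairs with Xrcc3 and also sits in a complex with Rad51b, Rad51d and Xrcc2, rose by 1.28, and Xrcc3 by 1.01. Rad51d was at 2.69, 2.26, 2.93, 2.13 and 2.36 FPKM in Solution and 2.33, 2.06, 2.16, 2.11 and 2.39 in Plerixafor. It was at 1.28, 2.14, 2.8, 2.07 and 1.82 FPKM in anti-PD-1 and 2.25, 2.13, 2.22, 2.18 and 2.05 in Combination. All groups overlapped, and the log2 fold change did not pass, at -0.11 (adjusted p = 0.347, SE 0.10). It passed as lower with median-of-ratios scaling, at -0.17 (adjusted p = 0.0409), and with limma-voom, at -0.25 (adjusted p = 0.0291). Rad51b had too few reads for the 1 FPKM minimum, with means of 0.734 ± 0.232 FPKM in Solution and 1.01 ± 0.124 in Plerixafor, and did not pass without a minimum, with a log2 fold change of 0.22 and an adjusted p of 0.103 by limma.

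All 4 tested cofactors of strand exchange rose. Rad54b, a motor protein of recombination, had almost no signal without Plerixafor, with 13 to 26 reads per library in Solution and 5 to 47 in anti-PD-1, against 183 to 349 in Plerixafor and 202 to 288 in Combination. In FPKM these were 0.0993, 0.20, 0.165, 0.136 and 0.16 in Solution and 2.1, 1.93, 2.68, 2.34 and 1.49 in Plerixafor. The Combination libraries were at 1.65, 1.71, 1.7, 2.2 and 1.89 FPKM and the anti-PD-1 libraries at 0.0428, 0.175, 0.153, 0.336 and 0.213. The 2 pairs of groups were far apart, with a ratio of mean FPKM of 13.9 in Plerixafor and a log2 fold change of 1.42 (adjusted p = 3.65e-10, SE 0.096). Rad51ap1, which stimulates strand exchange, went from 1.39, 1.31, 1.59, 1.18 and 1.05 FPKM in Solution to 11.3, 11, 10.2, 9.91 and 7.03 in Plerixafor. It was at 0.333, 1.5, 1.27, 2.55 and 1.11 FPKM in anti-PD-1 and 8.74, 9.55, 9.25, 10.7 and 10.7 in Combination. No library with Plerixafor reached down to the others, and the log2 fold change was 2.23 (adjusted p = 3.88e-09, SE 0.18). Rad54l, the close relative of Rad54b, rose by 1.16. Rad52, an annealing protein, had the largest p of the class, at 3.04, 2.08, 2.63, 2.22 and 2.99 FPKM in Solution and 4.34, 3.94, 3.53, 3.55 and 3.7 in Plerixafor. It was at 3.07, 3.46, 2.64, 2.58 and 2.5 FPKM in anti-PD-1 and 4.04, 3.59, 3.12, 3.51 and 4.26 in Combination, and its log2 fold change was 0.43 (adjusted p = 0.000688, SE 0.098), past the threshold.

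Blm, the helicase lost in Bloom syndrome, was at 1.21, 1.28, 1.26, 1.57 and 1.36 FPKM in Solution and 9.54, 8.48, 6.85, 8.73 and 5.03 in Plerixafor. It was at 0.598, 1.03, 1.07, 2.05 and 0.974 FPKM in anti-PD-1 and 6.41, 7.13, 7.37, 8.68 and 7.73 in Combination. The groups with Plerixafor lay wholly above, and the log2 fold change was 1.88 (adjusted p = 4.36e-09, SE 0.15). Rad50, the coiled-coil subunit of the complex that senses broken ends, was at 5.87, 6.19, 5.84, 5.97 and 5.69 FPKM in Solution and 15.1, 13.7, 14.7, 14.7 and 11.4 in Plerixafor. It was at 2.44, 4.83, 6.17, 6.61 and 4.7 FPKM in anti-PD-1, where replicate 1 was lowest, and at 12.9, 12.9, 12.7, 14.5 and 14.9 in Combination. Its log2 fold change was 1.10 (adjusted p = 3.31e-06, SE 0.15).

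The XRCC genes of break repair all rose in Plerixafor, with a median of 1.10. Xrcc5, which encodes the larger Ku subunit, was at 3.73, 3.23, 4.21, 2.56 and 3.08 FPKM in Solution and 15.2, 16.9, 12.6, 14.2 and 9.67 in Plerixafor. In anti-PD-1 it was at 8.2, 5.29, 3.77, 3.27 and 5.22 FPKM and in Combination at 10.7, 13.4, 11.9, 14.2 and 15.9. The anti-PD-1 libraries spread widely, and replicate 1, the library with the largest share of the muscle markers, was the highest of them. The log2 fold change was 1.74 (adjusted p = 1.01e-07, SE 0.18) in Plerixafor and 0.46 (adjusted p = 0.0978, SE 0.18) in anti-PD-1, which did not pass. Xrcc6, the smaller Ku subunit, was at 2.92, 2.93, 3.72, 2.83 and 2.74 FPKM in Solution and 9.31, 9.05, 8.44, 9.58 and 6.79 in Plerixafor. It was at 4.54, 3.51, 3.33, 2.82 and 3.67 FPKM in anti-PD-1 and 7.89, 9.4, 8.49, 9.74 and 9.62 in Combination, and rose by 1.25 (adjusted p = 6.07e-09, SE 0.11) on the log2 scale in Plerixafor. Xrcc6 overlaps Desi1, which moved from a mean of 12.5 to 28.3 FPKM. Xrcc1, the scaffold of single-strand break repair, rose by 0.95.

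Xrcc4, the partner of the ligase that closes end joining, was at 4.23, 3.91, 5.08, 4.75 and 4.62 FPKM in Solution and 6.66, 6.54, 4.94, 7.19 and 4.21 in Plerixafor. It was at 3.91, 4.37, 3.7, 4.53 and 5.01 FPKM in anti-PD-1 and 5.82, 6.8, 7.42, 6.54 and 7.77 in Combination. Solution and Plerixafor overlapped, since Plerixafor replicate 5 was below 4 Solution libraries, and the log2 fold change was 0.31 (adjusted p = 0.0244, SE 0.12). That call was lost with median-of-ratios scaling, where the value was 0.23, with limma-voom, where it was 0.26, and when Solution replicate 1 or 2 or Plerixafor replicate 1, 2 or 4 was left out, where it lay between 0.24 and 0.29. In Combination the log2 fold change was 0.51 (adjusted p = 0.000711, SE 0.12).

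The ERCC genes of nucleotide excision repair split. Their median log2 fold change was 0.25 in Plerixafor and 0.073 in Combination, with 4 higher and 1 lower of 7 in Plerixafor. Ercc1, the non-catalytic subunit of the nuclease that cuts on the upstream side of a lesion, was at 10.5, 9.89, 10.2, 9.32 and 10.6 FPKM in Solution and 39, 40.6, 28.9, 41.7 and 21 in Plerixafor. It was at 10.3, 11.9, 10.7, 11.9 and 10.5 FPKM in anti-PD-1 and 29.9, 35.3, 34.7, 39 and 43.5 in Combination. The groups with Plerixafor were wholly above, and the log2 fold change was 1.62 (adjusted p = 1.53e-08, SE 0.15). Ercc1 had the highest mean of the 47 genes in both groups with Plerixafor. It overlaps Cd3eap, a subunit of RNA polymerase I, whose mean went from 6.42 to 43.6 FPKM, a larger ratio than that of Ercc1 (6.8 against 3.39), so reads shared between them could count in either.

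Ercc4, which encodes the catalytic subunit of that same nuclease, was at 3.41, 2.72, 3.49, 3.0 and 3.2 FPKM in Solution and 2.81, 3.08, 3.0, 2.5 and 3.4 in Plerixafor. It was at 1.68, 2.86, 3.12, 3.0 and 2.33 FPKM in anti-PD-1 and 2.8, 2.74, 3.06, 2.85 and 2.77 in Combination. All groups overlapped, and the log2 fold change was -0.074 (adjusted p = 0.53, SE 0.10) in Plerixafor, not past the threshold. In Combination it was -0.11 (adjusted p = 0.33, SE 0.10), and it passed there as lower with median-of-ratios scaling, at -0.17, and with limma-voom, at -0.23. Ercc2 and Ercc3, the helicases of the TFIIH complex, which serves transcription as well as repair, parted in the same way. Ercc2 was at 7.33, 5.5, 7.85, 6.61 and 7.42 FPKM in Solution and 28.2, 26.3, 22.2, 28.4 and 22.7 in Plerixafor. It was at 5.53, 7.33, 7.01, 8.43 and 6.51 FPKM in anti-PD-1 and 26.6, 23.9, 25.3, 28 and 27.7 in Combination, with a log2 fold change of 1.74 (adjusted p = 1.1e-10, SE 0.11) in Plerixafor. Ercc3 was at 15.4, 13.9, 16.5, 15.6 and 14.5 FPKM in Solution and 15, 15.9, 16.6, 15.2 and 15.2 in Plerixafor, overlapping throughout. It was at 7.59, 13.1, 13.6, 15.9 and 12.1 FPKM in anti-PD-1, where replicate 1 was lowest, and 14.8, 14.7, 15.4, 14.7 and 16.8 in Combination. Its log2 fold change was 0.036 (adjusted p = 0.803, SE 0.13), and its sign turned with median-of-ratios scaling, to -0.051.

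Ercc8, a gene of transcription-coupled repair, was at 1.46, 1.67, 1.85, 1.63 and 1.9 FPKM in Solution and 3.88, 4.07, 4.62, 4.51 and 3.61 in Plerixafor. It was at 1.66, 1.58, 1.77, 1.97 and 1.82 FPKM in anti-PD-1 and 3.74, 4.38, 4.33, 3.81 and 4.28 in Combination, and rose by 0.93 (adjusted p = 4.02e-09, SE 0.076) on the log2 scale. Ercc6, its partner in transcription-coupled repair, rose by 0.25 (adjusted p = 0.0178, SE 0.089), a call lost without Plerixafor replicate 4, where the value was 0.21. In Combination Ercc6 did not pass, at 0.073 (adjusted p = 0.47, SE 0.089). Ercc5, the nuclease that cuts on the downstream side, fell. It was at 2.63, 2.35, 3.14, 2.72 and 2.89 FPKM in Solution and 1.54, 1.54, 1.72, 1.81 and 1.84 in Plerixafor. It was at 2.76, 2.87, 2.91, 2.26 and 2.72 FPKM in anti-PD-1 and 1.92, 1.72, 1.46, 1.66 and 1.77 in Combination, with the groups apart, and its log2 fold change was -0.48 (adjusted p = 1.8e-05, SE 0.076).

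Among the mismatch repair genes Msh3 and Msh6 rose and Mlh3 fell. Msh3, a subunit of the sensor of small loops, was at 2.51, 1.96, 2.59, 2.24 and 2.35 FPKM in Solution and 16.9, 14.4, 12.6, 14.8 and 8.89 in Plerixafor. It was at 3.42, 2.86, 2.39, 2.86 and 2.83 FPKM in anti-PD-1 and 12.5, 13, 12.4, 14.9 and 16 in Combination, and its log2 fold change was 2.10 (adjusted p = 1.06e-10, SE 0.13). No library with Plerixafor reached down to the others. Msh6, a subunit of the sensor of single mismatches, rose by 1.95 (adjusted p = 4.19e-09, SE 0.16), from a mean of 5.7 ± 0.367 FPKM to 25 ± 3.18 (SD, n = 5).

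Mlh3, best known for meiotic crossovers, fell. It was at 3.15, 2.63, 2.87, 2.84 and 2.9 FPKM in Solution and 1.51, 1.36, 1.39, 1.58 and 1.9 in Plerixafor. It was at 3.54, 3.17, 3.14, 2.83 and 2.79 FPKM in anti-PD-1 and 1.35, 1.18, 1.38, 1.41 and 1.98 in Combination. Every library with Plerixafor was below every library without, and the log2 fold change was -0.61 (adjusted p = 5.09e-06, SE 0.087) in Plerixafor and -0.66 (adjusted p = 1.79e-06, SE 0.087) in Combination.

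The meiotic MutS homologs and the other genes below 1 FPKM are better seen in reads. Msh4, which stabilises crossovers in germ cells, had 0, 0, 1, 0 and 1 reads in the Solution libraries and 37, 60, 34, 51 and 35 in the Plerixafor libraries. It had 0, 1, 0, 3 and 0 reads in anti-PD-1 and 34, 31, 27, 32 and 48 in Combination. The groups with Plerixafor lay wholly above the others at a level that remained below 1 FPKM in every library. Scaled to depth, the summed reads of Plerixafor were 114.4 times those of Solution, with an exact 95% interval of 31.3 to 950.7 that covers counting error only. Without the FPKM minimum limma gave a log2 fold change of 0.71 (adjusted p = 4.72e-09). Germ cell genes gave few reads in each group: Sycp3 had 20 reads over the Solution libraries and 12 over the Plerixafor libraries, and Ddx4 had 53 and 19. Msh5, the partner of Msh4, did not follow it, with 164 reads over the Solution libraries and 145 over the Plerixafor libraries.

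Rad51ap2 had 6 reads over the Solution libraries and 0 in each of the other 15 libraries. Fancd2os, which lies opposite Fancd2, had 0 reads in Solution, 4 over the Plerixafor libraries and 3 over the Combination libraries. These counts are too few for a fold change.

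The tested genes that were not placed in a role class also rose. Ercc6l, a motor protein of anaphase DNA bridges, was at 1.12, 1.41, 1.15, 1.25 and 1.05 FPKM in Solution and 12, 10.0, 10.9, 11.6 and 5.68 in Plerixafor. It was at 0.216, 1.05, 1.15, 2.28 and 1.13 FPKM in anti-PD-1 and 9.11, 10.0, 9.55, 10.4 and 11 in Combination, with the groups apart and a log2 fold change of 2.30 (adjusted p = 9.55e-09, SE 0.20). Rad54l2, a remodeller related to Rad54l, was at 4.03, 4.47, 4.22, 4.22 and 4.69 FPKM in Solution and 9.09, 8.68, 7.65, 10.1 and 7.02 in Plerixafor. It was at 2.73, 3.96, 4.38, 4.34 and 3.38 FPKM in anti-PD-1 and 7.17, 6.9, 6.99, 8.78 and 8.22 in Combination, and rose by 0.83 (adjusted p = 1.75e-06, SE 0.11). Ercc6l2 rose by 0.40 (adjusted p = 0.000126, SE 0.076).

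Genes whose proteins work as partners held different ratios in the groups. The ratios were taken within each library, for pairs chosen after their values were seen, and carry no test. Ercc1 to Ercc4 was 2.91 to 3.64 in Solution, 6.18 to 16.6 in Plerixafor, 3.43 to 6.18 in anti-PD-1 and 10.7 to 15.7 in Combination. Ercc2 to Ercc3 was 0.397 to 0.511 in Solution, 1.34 to 1.88 in Plerixafor, 0.517 to 0.728 in anti-PD-1 and 1.63 to 1.9 in Combination, so Ercc2 was below Ercc3 without Plerixafor and above it with Plerixafor. Of the other pairs, the Ku subunits, Xrcc5 to Xrcc6, were 0.903 to 1.28 in Solution and 1.43 to 1.87 in Plerixafor, and in anti-PD-1, at 1.13 to 1.8, they overlapped both. Fancd2 to Fanci was 0.782 to 1.43 in Solution, 1.4 to 1.78 in Plerixafor and 1.05 to 1.92 in anti-PD-1, which all overlap. Xrcc2 to Rad51d was 0.476 to 0.647 in Solution, 1.64 to 2.65 in Plerixafor and 0.503 to 1.46 in anti-PD-1, where the highest library lay below the lowest of Plerixafor. Rad51c to Xrcc3 was 0.136 to 0.591, 0.634 to 0.783 and 0.27 to 0.633 in these groups, with anti-PD-1 almost reaching Plerixafor, and Rad51c was at the lower level in all 3.

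**Figure D4:**
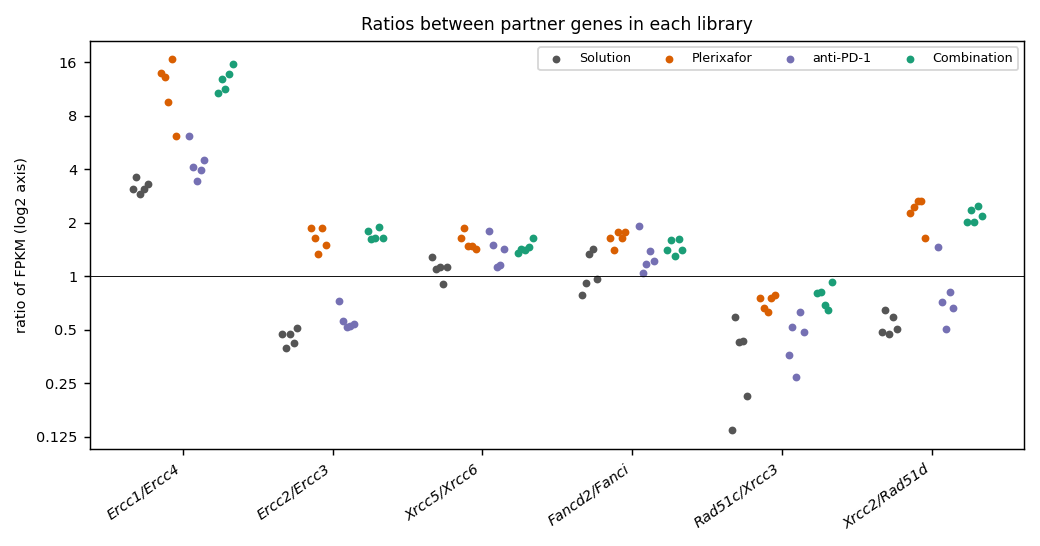
Ratio of FPKM between partner genes (log2 vertical axis) in each of the 20 libraries, for 6 pairs. The ratio is higher in every Plerixafor and Combination library than in any Solution library for 5 of the 6 pairs, with Fancd2 to Fanci the exception. The anti-PD-1 libraries overlap those of Plerixafor in Xrcc5 to Xrcc6 and in Fancd2 to Fanci.

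Because many of these genes moved together, their promoters were read for the letters of binding sites of cell cycle factors. RefSeq (GRCm38.p6) gave a promoter for 36 of the 47 genes, from 250 bases before to 50 bases after the start. The letters TTGGCGC or TTCCCGC, which are those of E2F sites, were in 18 of them on either strand (50%), against 7.79% of 27025 genes with a promoter and 13.7% of the 10123 that were also tested here. The 18 included Ercc5, which fell, and Fancg, which did not pass. Of the 26 genes with a promoter that rose in Plerixafor, 14 held these letters and 12 did not, and Blm, Xrcc5, Ercc1 and Fanca are among the 12. Of 4 other sets searched, the longer E2F forms TTTGGCGC, TTTCCCGC, TTTGCCGC or TTTCGCGC were in 7 promoters (19.4%, against 2.61% and 4.63%). TTTGGCGC and TTTCCCGC contain the letters of the first set. TTTCGCGC contains CGCGAA read on the other strand, so these sets can share matches. CCAAT was in 22 (61.1%, against 41.1% and 43.1%), CGCGAA in 10 (27.8%, against 4.67% and 9.0%) and TTTGAA in 3 (8.33%, against 20.2% and 14.6%). The sets were chosen after the values were seen, and a match of letters is a description, not a binding site.

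The promoters of 3 genes that rose with a match, and of Ercc4, which did not pass and has none, are shown as examples, 5′ to 3′ on the strand of the gene, with the matching letters in capitals. Brca1 (chr11:101551906-101552205, minus strand) has the match from base 22 after the start. Rad51ap1 (chr6:126939538-126939837, minus strand) has it from base 13 after the start. Msh6 (chr17:87974800-87975099, plus strand) has it from base 17 after the start, and Ercc4 is at chr16:13109486-13109785 on the plus strand.
Brca1: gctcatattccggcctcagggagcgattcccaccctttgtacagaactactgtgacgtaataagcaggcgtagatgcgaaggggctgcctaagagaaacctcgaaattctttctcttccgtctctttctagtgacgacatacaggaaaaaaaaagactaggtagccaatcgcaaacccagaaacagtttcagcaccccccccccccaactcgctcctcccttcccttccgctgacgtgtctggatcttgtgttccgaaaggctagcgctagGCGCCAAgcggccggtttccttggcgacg
Rad51ap1: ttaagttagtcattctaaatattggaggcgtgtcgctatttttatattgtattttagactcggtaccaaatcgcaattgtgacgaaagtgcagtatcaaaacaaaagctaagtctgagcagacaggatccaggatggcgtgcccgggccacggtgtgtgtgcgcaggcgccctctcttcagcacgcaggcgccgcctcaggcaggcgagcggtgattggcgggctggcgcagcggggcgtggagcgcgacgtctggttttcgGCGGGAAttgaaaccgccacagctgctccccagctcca
Msh6: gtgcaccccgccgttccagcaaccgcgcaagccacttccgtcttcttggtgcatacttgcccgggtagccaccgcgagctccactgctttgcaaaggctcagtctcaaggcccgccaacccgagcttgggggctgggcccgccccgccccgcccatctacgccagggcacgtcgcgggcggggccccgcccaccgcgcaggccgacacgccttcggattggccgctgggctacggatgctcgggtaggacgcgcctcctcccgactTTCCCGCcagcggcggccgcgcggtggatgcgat
Ercc4: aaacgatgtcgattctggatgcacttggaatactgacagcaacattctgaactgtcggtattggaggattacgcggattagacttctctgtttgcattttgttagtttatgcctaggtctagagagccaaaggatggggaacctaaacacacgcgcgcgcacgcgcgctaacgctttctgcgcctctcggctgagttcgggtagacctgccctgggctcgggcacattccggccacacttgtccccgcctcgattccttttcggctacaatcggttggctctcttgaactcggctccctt

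Repair genes outside the naming rule were read from a list of 95, of which 93 were tested. In Plerixafor 68 rose and 6 fell, where 42.3% of all tested genes were higher and 33.2% lower. The median log2 fold change of the 93 was 0.67, beside 1.10 for the chosen genes and 0.13 for all tested genes. In Combination 69 rose and 7 fell, with a median of 0.72, where 42% of all tested genes were higher and 34.1% lower, with a median of 0.10. Bard1, the partner of Brca1, had means of 0.571 ± 0.133 FPKM in Solution and 10.7 ± 1.6 in Plerixafor (SD, n = 5), with a log2 fold change of 2.89 (adjusted p = 1.35e-11, SE 0.15). Recql4, a helicase related to Blm, went from 0.589 ± 0.098 to 16.2 ± 2.36 FPKM, and Chek1, a checkpoint kinase of replication stress, from 0.598 ± 0.13 to 16 ± 2.91. Gtf2h4, a TFIIH subunit that sits with Ercc2 and Ercc3, rose by 1.76 (adjusted p = 4.33e-12, SE 0.076) on the log2 scale. Psmc3ip, an accessory factor of recombination, and Polh, a polymerase that copies past damage, rose by 1.74 and 1.90. The genes with the largest p were Polm (-0.049), Wrn (-0.026), Dclre1c (-0.019) and Polb (0.0092), which act in end joining, as a helicase, in end trimming and in base excision. Those that fell were Mgmt (-1.22), which removes alkyl groups from guanine, the helicases Recql5 (-0.69) and Recql (-0.32), the Fanconi accessory gene Faap20 (-0.75) and the glycosylases Neil1 (-0.44) and Tdg (-0.21).

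With the antibody alone none of the 42 genes passed by limma, where 8.38% of all tested genes rose and 3.08% fell, and 8 of the 42 had an unadjusted p under 0.05, where 34.1% of all tested genes had. The log2 fold changes ran from -0.34 (Fancg) to 0.46 (Xrcc5), with a median of -0.062 against -0.11 for all tested genes. No gene of the 47 had its anti-PD-1 libraries wholly above or below Solution, where 2.89% and 2.8% of tested genes had. The result leans on which library is included. Without anti-PD-1 replicate 4, which was the highest of its group in 26 of the 42 genes, 10 passed: Ercc3, Ercc6, Fanca, Fance, Fancg, Fancl, Rad54l and Xrcc1 lower, and Ercc6l2 and Xrcc5 higher. In that setting 17.5% of all tested genes were lower and 14.9% higher, more than with every library included. Without anti-PD-1 replicate 3, Ercc6, Fancc and Rad51d passed as lower, where 8.04% of all tested genes were lower and 11.1% higher. With array weights, which count noisy libraries less, Ercc3 and Fancg passed as lower and Ercc6l2, Xrcc5 and Xrcc6 as higher, where 16% of all tested genes were lower and 16.8% higher. Limma-voom on the recovered reads called none of the 42, and 1.14% of all tested genes as higher and 0.804% as lower. Replicate 1 had the largest share of the muscle markers and was the lowest of its group in 30 of the 42 genes. Without replicate 1 none passed, where 6.12% of all tested genes were higher and 2.03% lower. Of all genes called in this comparison, 73.1% were higher, and 58.5% were by limma-voom.

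With the antibody added to Plerixafor none of the 42 genes passed by limma, and none had an unadjusted p under 0.05, where 0% of all tested genes passed and 0.473% had an unadjusted p under 0.05. No gene had its Combination libraries wholly above or below Plerixafor, where 0.158% and 0.252% of tested genes had. The log2 fold changes of Combination against Plerixafor ran from -0.18 (Ercc6) to 0.20 (Xrcc4), with standard errors of 0.076 to 0.20. Limma-voom and array weights called none either, and 0% of all tested genes. The interaction, which is the effect of the antibody with Plerixafor minus its effect without, passed for none of the 42 and for 0% of all tested genes, and 2 of the 42 had an unadjusted p under 0.05, where 15.4% of all tested genes had. The smallest p was that of Fancl, at 0.46 (adjusted p = 0.221, SE 0.16). With array weights Ercc6l2, Msh3 and Xrcc5 passed as lower and Fancl as higher, where 15% of all tested genes were lower and 17.1% higher. Without anti-PD-1 replicate 4 Fancl passed as higher, where 0.733% of all tested genes were higher and 7.2% lower.

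Within groups the genes also moved together by library. Plerixafor replicate 5 was the lowest of its group in 31 of the 42 tested genes, and the same library had the lowest summed level of proliferating cell markers of its group (523.5 FPKM) and the highest of macrophage markers (6106 FPKM). The part of these markers in the library's lower values was not tested. Without that library the counts in Plerixafor against Solution stayed at 35 higher and 2 lower, where 42% and 34% of all tested genes were. Combination replicate 5 was the highest of its group in 23 genes, and replicate 1 the lowest in 18. Their summed proliferating cell markers were 944.0 and 792.4 FPKM, the latter the lowest of the group, and replicate 4 had the highest, 973.4. Anti-PD-1 replicate 1 was lowest in 30 genes and replicate 4 highest in 26, with the lowest and highest sums of their group, 13.0 and 150.6 FPKM. Solution replicate 2 was lowest in 18 genes yet had the highest sum of its group, 71.8 FPKM. Solution replicate 3 was highest in 20 genes and had 62.7.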

How the data were processed

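RNA from 20 U14 tumour samples was sequenced with a stranded mRNA kit on an Illumina platform, per the labels' protocols. The authors deposited FPKM values for 18722 genes by symbol. The genome build was GRCm39, and the tools named were DESeq2 1.28.1, StringTie 2.1.4, HTSeq 0.11.2 and HISAT2 2.1.0, per the submitters' processing notes. Their roles, the tool that made the FPKM and strand use in counting are not given in the sources used here.

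Within each gene the FPKM were whole multiples of 1 step (tolerance 0.02) for 18722 of 18722 genes, which returned the reads and depth of each library. These reads carry no molecular identifiers, and they limit precision only for genes with few of them. Log2(FPKM + 1) was fitted by group over the 20 libraries together (R 4.3.3, limma 3.58.1, empirical Bayes with a trend, two-sided), which leaves 16 residual degrees of freedom, for genes of at least 1 FPKM in at least 5 libraries, with Benjamini-Hochberg adjustment within each of 6 comparisons at 0.05. The fit was tested on simulated data. The DNA repair genes, lists, tests and naming rule were chosen with earlier results of these data known. Values in every library are given for Brca1, Brca2, Fancd2, Fanci, Blm, Xrcc5 and Ercc1, for the 2 genes of each class with the smallest p in Plerixafor against Solution, and for the gene with the largest p of each class with over 3 tested genes; Ercc4, Ercc5, Mlh3 and Msh4 were added after their values were seen. Some genes of the rule are counted but not reported here by name. Promoters and gene overlaps came from RefSeq (GRCm38.p6), the overlaps by name only, since the builds differ. No libraries within a group were copies of each other. No batch is given in the labels.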

Additional observations from a re-analysis of the deposited data

Results flagged for a closer look

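Of 171 groups of 5 libraries examined gene by gene on log2(FPKM + 1), 6 held a library set apart from the others of its group. The gap was over 0.71 of the group's range on that log2 scale, and 3 of the 6 were Plerixafor replicate 5. The values listed below are in FPKM, where the gaps can take a smaller part of the range. Chance alone sets apart about 1 group in 20, and genes that move together are not independent.

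In Plerixafor replicate 5, Msh6 was at 19.5 FPKM against 25.4 to 27.5 in the other libraries of its group. Ercc6l was at 5.68 FPKM there against 10.0 to 12, and Rad51ap1 at 7.03 against 9.91 to 11.3. In anti-PD-1 replicate 4, Ercc5 was at 2.26 FPKM against 2.72 to 2.91. In Solution replicate 2, Fancg was at 3.74 FPKM against 4.40 to 4.67. In Solution replicate 3, Xrcc6 was at 3.72 FPKM against 2.74 to 2.93.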

How the results depend on the processing

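The counts of DNA repair genes called in Plerixafor against Solution (37), Combination against Solution (37) and Combination against anti-PD-1 (39) stayed within 1.5 times under a pseudocount of 0.1, no minimum, median-of-ratios scaling, array weights, limma-voom on recovered reads, a fit of only the groups compared and the leaving out of each library. A minimum of 5 FPKM, under which fewer genes are tested, left 21, 21 and 22 calls, all higher and 0 lower. Of all 9483 genes tested there, 4453 were higher and 2755 lower in Plerixafor against Solution. The counts were 4459 and 2831 in Combination against Solution, and 4641 and 2450 in Combination against anti-PD-1. Ercc5 and Mlh3 reached at most 3.14 and 3.54 FPKM in any library, so they were not tested at that minimum. Genes called lower in Combination against Solution numbered 4 under median-of-ratios scaling and 4 under limma-voom, with Ercc4 and Rad51d added to Ercc5 and Mlh3. In anti-PD-1 against Solution no minimum gave 1 call (1 lower, Rad51ap2, which is not tested otherwise), and array weights gave 5 (3 higher, 2 lower). Array weights gave 4 for the interaction (1 higher, 3 lower). Leaving out 1 library in turn gave 35 to 38 calls in Plerixafor against Solution (33 to 36 higher), 0 to 10 in anti-PD-1 against Solution (0 to 2 higher, 0 to 8 lower), 38 to 39 in Combination against anti-PD-1 and 0 to 1 for the interaction. The cause was not tested. Single genes at no clear change turned sign: Ercc3 in Plerixafor against Solution was -0.051 under median-of-ratios scaling and -0.055 under limma-voom; in Combination against Solution it was -0.060, -0.064 and -0.0075 under median-of-ratios scaling, limma-voom and array weights, and -0.023 to 0.039 with 1 library left out. Ercc6 in Combination against Solution was -0.0074 under array weights. In Combination against anti-PD-1 Ercc3 passed as higher, at 0.31 (adjusted p = 0.0333 by limma). That call was lost under median-of-ratios scaling, limma-voom and a fit of only those groups. It was also lost without anti-PD-1 replicate 1 or 5 or Combination replicate 3 or 5. There Rad52 lost its call under median-of-ratios scaling, array weights and limma-voom. Ercc6 lost it under array weights, and Fancg in a fit of only those groups. The replicate numbers did not pair libraries: over 30 pairs with the same number the deviations correlated at -0.75 to 0.51, with 7 over 0.1, and 2 of 20 libraries correlated best with their own number. The replicate block left the calls at 37, 0, 37, 0, 39 and 0, in the order Plerixafor, anti-PD-1 and Combination against Solution, Combination against Plerixafor and against anti-PD-1, and interaction. In anti-PD-1 against Solution the count over all tested genes was 1454, and it was 246 under limma-voom, 4163 under array weights and 0 in a fit of only those groups. Depth limits Msh4, Rad51ap2 and Fancd2os, whose counts in some groups are 0 to 3 reads.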
